A study of Mus musculus with 6 samples.

Results

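The primitive streak and endoderm regulators are 10 transcription factor genes chosen by name, T, Eomes, Mixl1, Gsc, Mesp1, Evx1, Foxa2, Sox17, Gata4 and Gata6, among the 55416 genes of the counts table. All 10 were found in the table by their Ensembl identifiers. Their transcripts were measured by RNA-seq in epiblast-like cells (EpiLCs), the formative cells that mouse embryonic stem cells become after 48 h of differentiation. The WT group is the parental 46C line, an embryonic stem cell line whose GFP reporter is read from the neural Sox1 locus. The KO group is 1 clone derived from it, with 1 base inserted by CRISPR/Cas9 into both copies of Oct6 (official symbol Pou3f1). Both groups, of 3 libraries each, were grown in the same N2B27 medium with 1% KSR (a serum replacement), bFGF and Activin A. The labels give bFGF at 12 ng/ml and Activin A at 20 ng/ml, while the study's methods write the same figures in µg/ml. Since the KO cells are 1 clone, the loss of Oct6 and any other property of that clone cannot be told apart.

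During gastrulation, epiblast cells at the posterior side of the embryo form the primitive streak, through which cells leave to become mesoderm and definitive endoderm. Nodal, for which Activin A stands in in culture, and Wnt signals induce the streak, and T, Eomes, Mixl1, Gsc, Mesp1 and Evx1 are among its transcription factors. Foxa2, Sox17, Gata4 and Gata6 act in endoderm, and Gata4, Gata6 and Sox17 also mark the primitive endoderm, an earlier lineage of the blastocyst that is not made from the epiblast. EpiLCs have left the naïve state and can respond to these signals, but have not yet formed a streak.

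The libraries held 10995505 to 14680930 counts. At this depth 3 counts, taken here as the floor of detection, correspond to 0.203 to 0.274 CPM, the count scaled to the size of the library, and intervals and floors cover counting error only. Epiblast genes were abundant in every library, with 8 of 8 listed markers tested and summed levels of 3170 to 3539 CPM in WT and 3199 to 3360 CPM in KO. Pou3f1 itself was read at 142 ± 19.4 CPM in WT and 132 ± 7.59 CPM in KO (mean ± SD, n = 3), so that its transcript level does not tell the groups apart. The study reports that KO EpiLCs lacked the OCT6 protein by Western blot and immunofluorescence. Genes on chromosome 6 were lower in KO, with a median log2 fold change of -0.40 against 0.0014 over all genes tested. Among the regulators only Evx1 lies there. The median is over the whole chromosome, and no value was taken for the region around a single gene.

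The 250 bases before the start site of Eomes, the most abundant regulator, and of Mixl1, Gsc and Evx1, the homeobox regulators of the streak, are printed here to show where letters known from the inducing pathways and from POU factors, the family of Oct6, fall in them. They were read from the GRCm39 genome at the canonical start sites of GENCODE M39, run 5′ to 3′ on the strand of the gene, and carry capitals where a motif matched. The Eomes window is chr9:118307030-118307279 on the plus strand, Mixl1 is chr1:180524600-180524849 on the minus strand, Gsc is chr12:104439633-104439882 on the minus strand and Evx1 is chr6:52290233-52290482 on the plus strand.
Eomes: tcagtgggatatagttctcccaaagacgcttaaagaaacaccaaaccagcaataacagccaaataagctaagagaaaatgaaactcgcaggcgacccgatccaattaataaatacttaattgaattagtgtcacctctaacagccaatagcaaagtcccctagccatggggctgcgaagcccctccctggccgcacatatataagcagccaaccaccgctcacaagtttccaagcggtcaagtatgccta
Mixl1: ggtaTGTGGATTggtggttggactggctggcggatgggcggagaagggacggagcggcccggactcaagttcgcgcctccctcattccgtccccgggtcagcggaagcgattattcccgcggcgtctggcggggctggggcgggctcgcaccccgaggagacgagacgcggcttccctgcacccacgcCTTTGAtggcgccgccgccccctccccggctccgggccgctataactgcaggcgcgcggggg
Gsc: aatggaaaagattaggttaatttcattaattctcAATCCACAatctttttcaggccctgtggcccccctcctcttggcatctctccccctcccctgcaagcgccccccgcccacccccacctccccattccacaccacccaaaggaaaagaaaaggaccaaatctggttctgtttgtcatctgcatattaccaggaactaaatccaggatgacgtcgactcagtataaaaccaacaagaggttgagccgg
Evx1: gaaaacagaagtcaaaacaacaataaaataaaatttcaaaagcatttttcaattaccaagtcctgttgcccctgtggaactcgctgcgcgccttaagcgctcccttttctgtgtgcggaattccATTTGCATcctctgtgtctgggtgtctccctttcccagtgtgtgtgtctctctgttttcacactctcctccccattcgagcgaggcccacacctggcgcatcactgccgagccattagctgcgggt
In Mixl1 the capitals mark a FOXH1 match that begins 246 bases before the start and a TCF/LEF match at 62 bases, in Gsc a FOXH1 match at 216 bases, and in Evx1 a POU octamer at 126 bases. The Eomes window held none of the 5 motifs searched.

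Each motif was searched on both strands in the same window of all 10 regulators and of 21627 protein-coding genes. The POU octamer ATGCAAAT was found in 1 regulator, Evx1, and in 1.5% of all windows. AATNCACA, bound by the Nodal effector FOXH1, was found in Mixl1 and Gsc and in 3.12% of all windows. The Wnt effectors' TCF/LEF core TCAAAG was found in 4 regulators, T, Mixl1, Foxa2 and Sox17, and in 14.1% of all windows. AGATAA, read by GATA factors, was found in Gata4 and in 9.64% of windows, and the T-box letters AGGTGTGA in no regulator and in 0.966% of windows. A match is a description of the letters, and its absence says only that they are not in this window. The GC content was 46% for Eomes and 71.6% for Mixl1 against a median of 53.2% over all windows.

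Eomes and Gata6 were higher in KO EpiLCs, by 1.83-fold and 2.56-fold, and no streak or endoderm regulator was called lower. Sox17 passed the filter on low counts but not the test, and the other 7 regulators had too few counts to be tested, so that 3 of 10 were tested. Eomes and Gata6 were also the tested regulators whose groups did not overlap, which was so with KO above in 16.6% of all genes tested and in either direction in 33.7%. Calls rest on edgeR's quasi-likelihood test with a Benjamini-Hochberg adjusted p below 0.1, a rule that called 24.3% of the 15746 genes tested, 11.8% as higher and 12.5% as lower. In bulk RNA, more cells that express a gene and more RNA per cell cannot be told apart.

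**Figure D1:**
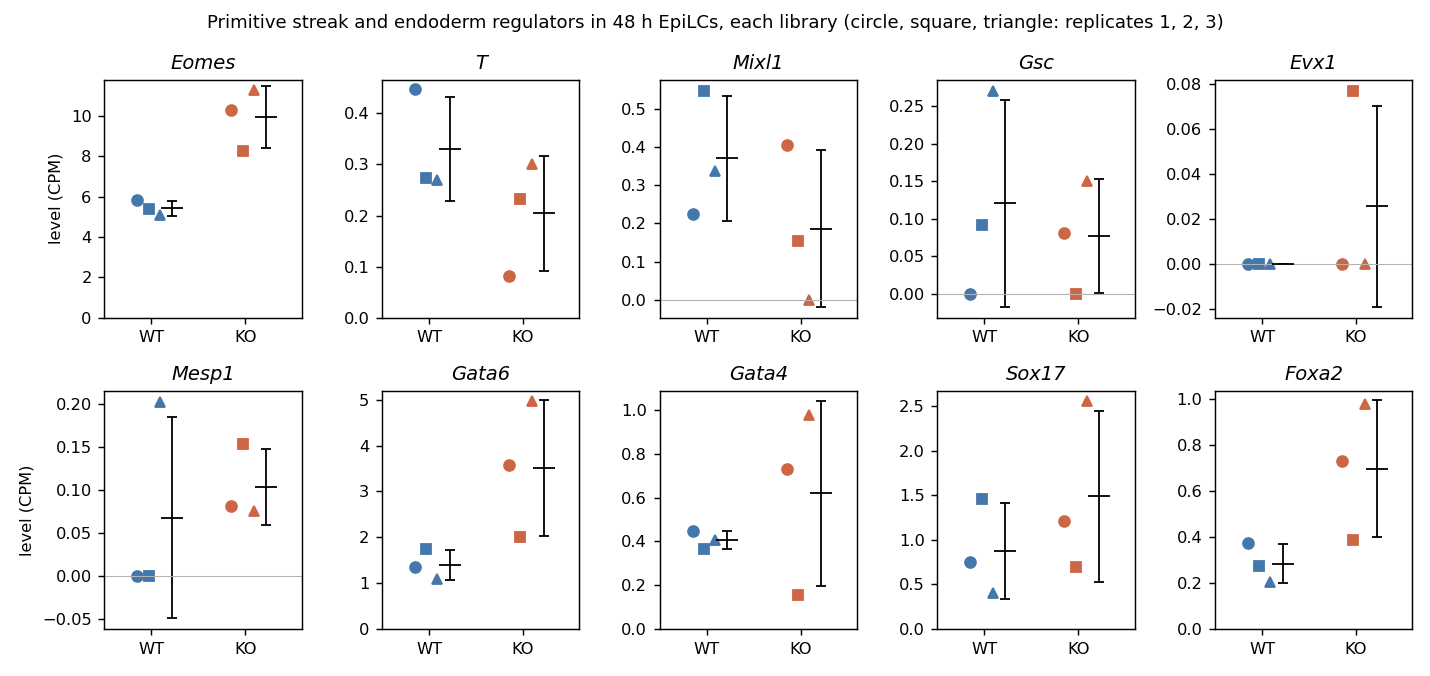
Level of each regulator in CPM (vertical axis, a separate scale for each gene) in the 3 WT and 3 KO libraries, with symbols for replicates 1 to 3 and, beside them, the mean with the SD as a bar, which runs below 0 where the SD exceeds the mean. Every KO library lies above every WT library for Eomes, Gata6 and Foxa2, and the groups overlap for the other regulators.

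Eomes, a T-box factor needed for definitive endoderm and for the exit of mesoderm from the streak, lies at chr9:118307280-118315200 (ENSMUSG00000032446.15). In order of replicate, its WT libraries were at 5.82, 5.38 and 5.07 CPM and its KO libraries at 10.3, 8.25 and 11.3 CPM, from 59 to 78 counts a library in WT and 107 to 150 in KO. The lowest KO library stood above the highest WT library. The log2 fold change was 0.87 with a standard error of 0.20 (edgeR's quasi-likelihood test, adjusted p = 0.00344). Leaving out 1 library at a time gave 0.77 to 0.99 and kept the call. The antisense gene Gm33460 shares 875 bases with the locus and had 4 to 13 counts a library, and whether counting used the strand is not given in the sources used here.

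T (Brachyury), the T-box gene that marks the whole nascent streak, did not share this. It was read by 6, 3 and 4 counts in WT and 1, 3 and 4 counts in KO, or 0.331 ± 0.101 and 0.204 ± 0.112 CPM (SD, n = 3). The groups overlapped, and the ratio of KO to WT was 0.624 with an exact 95% interval of 0.224 to 1.62 from the counts. That interval covers both a fall and a rise, so a change of T was not detectable at this depth.

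The homeobox genes of the streak were close to the floor. Mixl1, which acts in mesendoderm, had 3, 6 and 5 counts in WT and 5, 2 and 0 in KO, a ratio of 0.507 (0.173 to 1.34). Gsc (Goosecoid), of the anterior streak and organizer, had 0, 1 and 4 counts in WT and 1, 0 and 2 in KO, a ratio of 0.608 (0.0945 to 3.13). WT and KO overlapped for each, and both intervals include 1.

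Evx1, a homeobox gene of the posterior streak, was read by 1 count in all 6 libraries, in KO replicate 2. Pooled over 3 libraries, the exact 95% upper limits were 0.0942 CPM in WT and 0.144 CPM in KO. Mesp1, a bHLH factor of early and cardiac mesoderm, had 0, 0 and 3 counts in WT and 1, 2 and 1 in KO, a ratio of 1.35 (0.229 to 9.23). Evx1 reached the floor in no library and Mesp1 in 1, and the groups of both overlapped.

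Gata6, a zinc finger factor of primitive and definitive endoderm, lies at chr18:11051565-11086995 (ENSMUSG00000005836.11). Its level was 1.34, 1.73 and 1.08 CPM in WT and 3.56, 2.01 and 4.96 CPM in KO, in order of replicate. The groups did not overlap, but KO replicate 2 lay close to WT replicate 2. The log2 fold change was 1.35 with a standard error of 0.36 (edgeR's quasi-likelihood test, adjusted p = 0.0121). The call rests on KO replicate 3: without it the log2 fold change was 1.02 and the adjusted p 0.113 by the same test, while with any other library left out it was kept. Over all alternatives the adjusted p of Gata6 ran from 0.00122 to 0.113. The antisense gene Gata6os overlaps 1692 bases of the locus and had 0 to 5 counts a library.

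Gata4, the related factor of endoderm and heart, had 6, 4 and 6 counts in WT and 9, 2 and 13 in KO, or 0.406 ± 0.0414 and 0.620 ± 0.422 CPM (SD, n = 3). KO replicate 2 was the lowest of all libraries and KO replicate 3 the highest. The ratio was 1.52 (0.775 to 3.06), and the groups overlapped.

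Sox17, an HMG-box factor that acts in endoderm of both origins, was at 0.746, 1.46 and 0.406 CPM in WT and 1.22, 0.694 and 2.56 CPM in KO. WT replicate 2 stood above KO replicates 1 and 2, so that the groups overlapped. The log2 fold change was 0.83 with a standard error of 0.52 (edgeR's quasi-likelihood test, adjusted p = 0.315). It moved from 0.17 without KO replicate 3 to 1.37 without WT replicate 2. The ratio of its summed counts was 1.84 (1.17 to 2.92), an interval that covers counting error and not the spread between libraries.

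Foxa2, a forkhead factor of the anterior streak, endoderm and notochord, had 5, 3 and 3 counts in WT and 9, 5 and 13 in KO, or 0.283 ± 0.0855 and 0.698 ± 0.297 CPM (SD, n = 3). The KO libraries lay above the WT libraries, with an exact permutation p of 0.1, the smallest that 3 against 3 allow (two-sided). Of the 7 regulators under the filter it was the only one without overlap, a pattern seen in either direction in 8.77% of 14945 genes with a count that were not tested. Its ratio was 2.49 (1.20 to 5.56), and with library totals in place of TMM scaling the groups overlapped. In the other 6 the exact permutation p ran from 0.3 to 1. These permutations did not keep libraries of the same replicate number together.

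A fit without the filter gave these 7 regulators an edgeR quasi-likelihood value too. It called none of them, nor did any reach an unadjusted p below 0.05, with Foxa2 the nearest at a log2 fold change of 1.27 and an adjusted p of 0.339. The same fit called 12.4% of 30691 genes. DESeq2 also called none, and gave no adjusted p for T, Mixl1, Gsc, Mesp1 and Evx1.

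**Figure D2:**
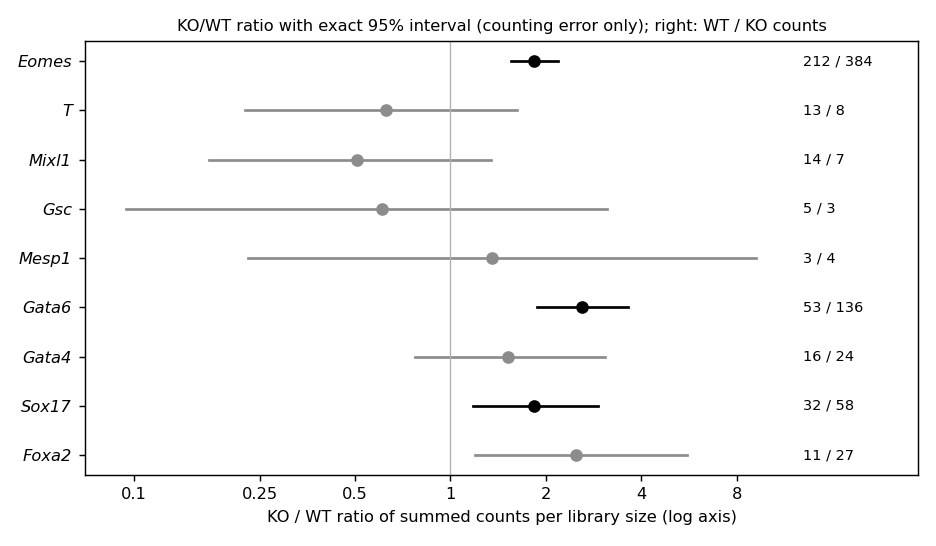
Ratio of KO to WT for 9 regulators (horizontal axis, log scale) from the counts summed over 3 libraries of a group, with exact 95% intervals for counting error and the summed counts at the right; Evx1, with 1 count, has none. Black marks the 3 genes tested. The intervals of T, Mixl1, Gsc, Mesp1 and Gata4 span 1, and those of Eomes and Gata6 run from 1.55 to 2.18 and from 1.88 to 3.64.

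Compared per length of exon, Eomes stood apart from the other 9 regulators in both groups. It was at 1.31 CPM per kb in WT and 2.39 CPM per kb in KO, and its range over libraries did not reach that of the next gene. In WT the next were Sox17 at 0.163, Mixl1 at 0.161, Gata6 at 0.150 and T at 0.132 CPM per kb, and no neighbours in this order differed beyond their ranges. With the longest transcript as the length, Gata6 came second in WT at 0.271 CPM per kb, ahead of Sox17 at 0.212, and was at 0.687 CPM per kb in KO. In KO the next were Gata6 at 0.381, Sox17 at 0.279, Foxa2 at 0.205 and Gata4 at 0.109 CPM per kb, again with overlapping ranges between neighbours. Eomes made up 53.0% to 68.2% of all counts of the regulators in a library.

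**Figure D3:**
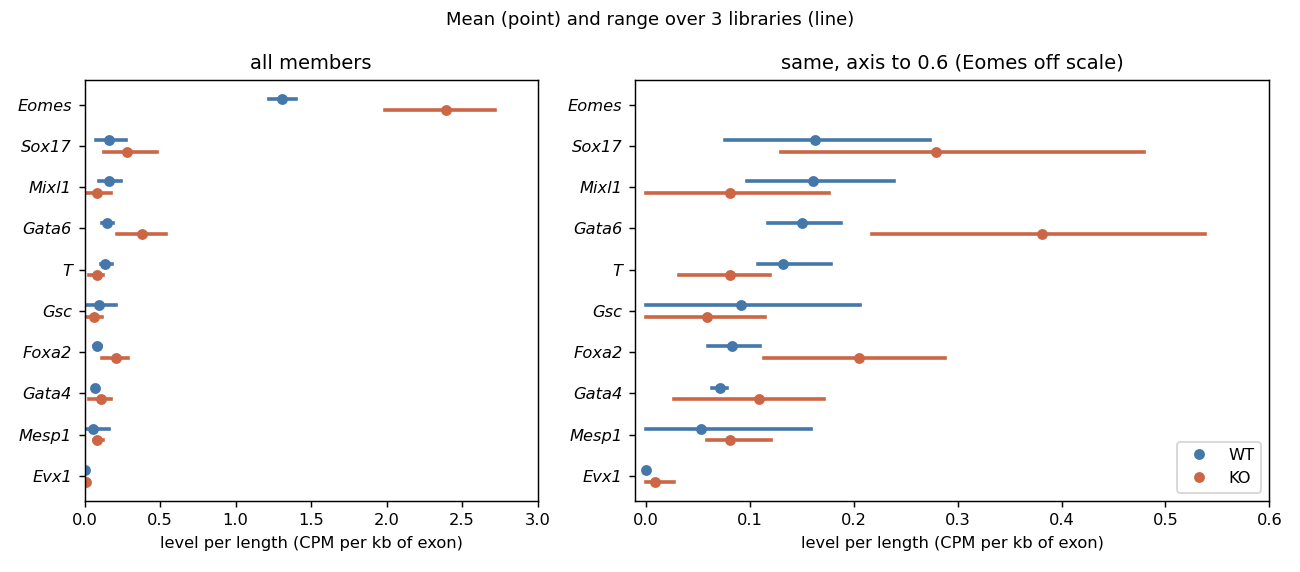
Level per length in CPM per kb of exon (horizontal axis) for the 10 regulators, as the mean (point) and range (line) of 3 WT or 3 KO libraries, over all values at the left and up to 0.6 at the right, where Eomes is off the scale. Eomes lies above the other regulators in both groups, and in KO the endoderm genes Gata6, Sox17, Foxa2 and Gata4 follow it.

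The 3 KO libraries were unequal in the endoderm regulators. Gata6, Sox17, Foxa2 and Gata4 were each highest in KO replicate 3 and lowest in KO replicate 2, and Eomes and Gsc had the same order. This order was noticed after the values were seen, and 16.1% of the genes tested have it. Of 11 tested genes of a primitive endoderm list, 8 had it too (Dab2, Hnf4a, Cubn, Lrp2, Col4a1, Col4a2, Lama1 and Lamc1). It was found in 0 of 3 tested genes of the definitive endoderm list, 1 of 3 of streak and mesoderm, 3 of 20 inducing signals, 0 of 8 epiblast genes, 0 of 3 trophoblast genes and 0 of 1 neural gene. Among the WT libraries, replicate 2 was the lowest for each of the 11 tested primitive endoderm genes and for Gata4. It was the highest for Gata6 and Sox17 and the middle one for Eomes and Foxa2. The share of all genes tested with WT replicate 2 lowest was not counted, so this is not shown to be particular to the list. Summed over the 10 regulators the level was 9.40, 10.1 and 8.25 CPM in WT and 17.2, 12.1 and 21.3 CPM in KO.

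**Figure D4:**
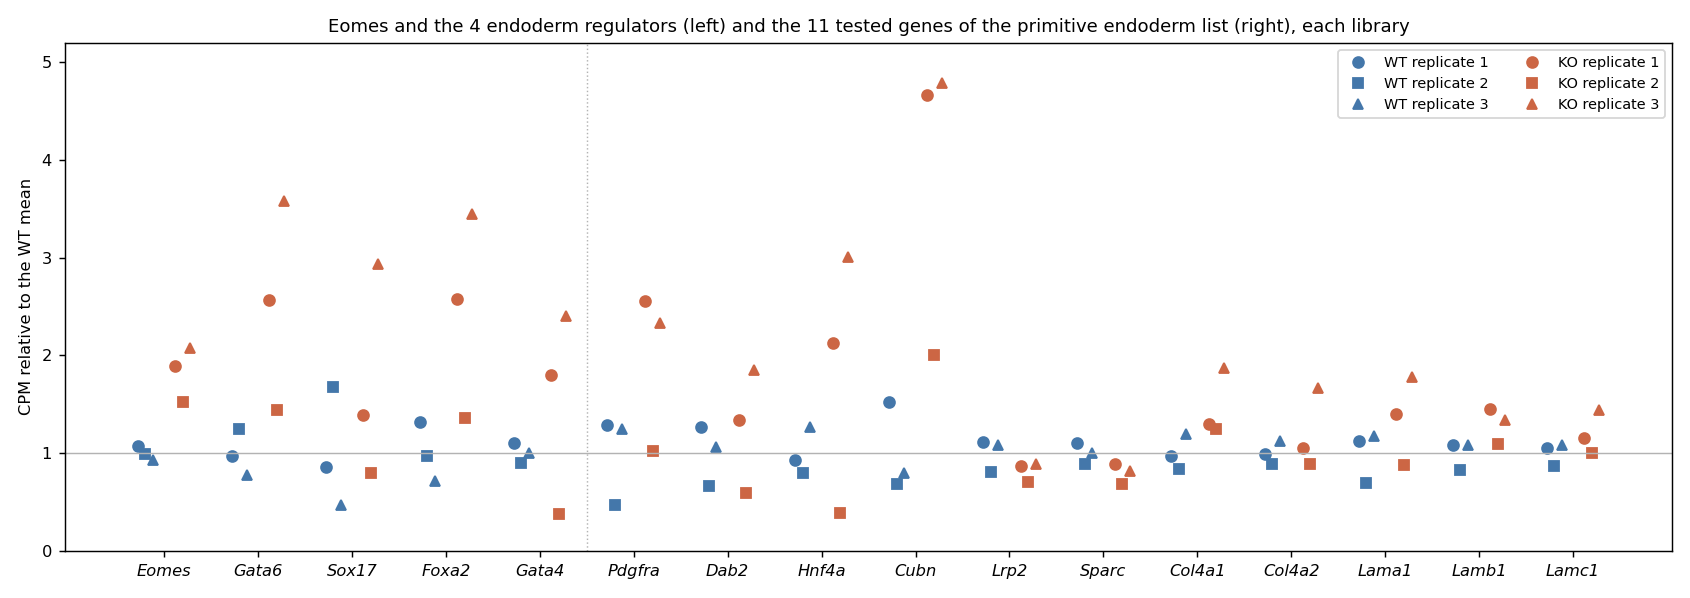
CPM of each library relative to the WT mean (vertical axis) for Eomes and the 4 endoderm regulators at the left and for the 11 tested genes of the primitive endoderm list at the right, with symbols for replicates 1 to 3. KO replicate 2 (square) is the lowest KO library for each gene, and Lrp2 and Sparc lie below 1 in every KO library. WT replicate 2 is the lowest WT library for each gene at the right. The share of all genes tested with replicate 2 lowest, in KO or in WT, was not counted.

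Markers of the primitive endoderm were followed as a cell type the cultures could hold. Of 17 listed genes 11 were tested, and 4 were higher in KO (Cubn, Pdgfra, Col4a1 and Lamb1) and 1 lower (Sparc), with a median log2 fold change of 0.37. Cubn, an endocytic receptor of visceral endoderm, rose from 4.69 ± 2.16 to 17.9 ± 7.38 CPM (log2 fold change 1.92, standard error 0.30, edgeR's quasi-likelihood test, adjusted p = 1.5e-04), with 21.9, 9.41 and 22.5 CPM in KO replicates 1 to 3. Pdgfra, a receptor of primitive endoderm, went from 1.74 ± 0.798 to 3.43 ± 1.45 CPM at an adjusted p of 0.0991 (edgeR's quasi-likelihood test), and its groups overlapped. Pdgfra was called in 5 of 12 alternative fits.

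Of the basement membrane genes of the list, the collagen IV and laminin genes had log2 fold changes above 0 and Sparc one below. Col4a2, Lama1 and Lamc1, at 0.26, 0.43 and 0.26, were not called. Col4a1 rose from 62.1 ± 11.3 to 91.3 ± 21.5 CPM and Lamb1 from 185 ± 27.5 to 239 ± 34.5 CPM, while Sparc fell from 105 ± 11.5 to 84.0 ± 10.8 CPM. Of the secreted proteins that define visceral endoderm, Ttr was at 0 in every library, Apoa1 had 0 to 4 counts, and Afp had 5 to 11 counts in WT and 0 to 2 in KO. The summed level of the list overlapped between groups, at 908 to 1192 CPM in WT and 949 to 1272 CPM in KO. Lrp2 was its most abundant gene, at 496 ± 83.7 CPM in WT and 407 ± 48.5 CPM in KO, and was not called. The sum follows Lrp2 and other abundant genes, and says little of scarcer ones such as Cubn and Pdgfra. The part of the list in the values of Gata6 and Sox17 was not tested. The number called, 5, was 8 with a replicate block (6 higher and 2 lower), 3 without KO replicate 1 and 1 without KO replicate 3.

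Other genes of the definitive endoderm split. Of 7 listed genes 3 were tested: Trh, a hormone precursor expressed in early endoderm, rose from 51.9 ± 6.52 to 93.7 ± 15.1 CPM (log2 fold change 0.85, standard error 0.12), although it lies on chromosome 6, and Foxa3, a forkhead factor of later endoderm, fell from 1.96 ± 0.207 to 0.682 ± 0.419 CPM (log2 fold change -1.52, standard error 0.44). By edgeR's quasi-likelihood test the adjusted p was 7.7e-05 for Trh and 0.0197 for Foxa3, whose call was lost without KO replicate 2 (log2 fold change -1.17, adjusted p = 0.105). Cer1, the secreted Nodal and Wnt inhibitor of anterior endoderm, had 0 to 2 counts a library. Trh made up most of the list's summed level, which was 51.2 to 65.4 CPM in WT and 85.4 to 114 CPM in KO.

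Of 14 streak and mesoderm genes, 3 were tested and 1 was called. Kdr, the VEGF receptor of early mesoderm and blood vessels, was at 0.448, 0.274 and 0.473 CPM in WT and 3.65, 1.77 and 2.33 CPM in KO, without overlap (log2 fold change 2.64, standard error 0.45, edgeR's quasi-likelihood test, adjusted p = 3.2e-04). The summed level of the list, 3.31 to 4.29 CPM in WT and 5.48 to 8.34 CPM in KO, was small in both. Kdr, at 0.398 ± 0.109 CPM in WT and 2.58 ± 0.961 CPM in KO, made up most of the difference between these sums.

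Of the signals that induce the streak, 20 of 22 genes were tested, 2 were higher in KO and 6 lower, with a median log2 fold change of -0.014. Nodal itself was at 111 ± 13.6 CPM in WT and 109 ± 16.4 CPM in KO and was not called. Tdgf1 (Cripto), the Nodal co-receptor, rose from 423 ± 59.7 to 559 ± 12.1 CPM (log2 fold change 0.40, standard error 0.11, edgeR's quasi-likelihood test, adjusted p = 0.0104). Lefty1 and Lefty2, Nodal antagonists that Nodal signaling itself induces, fell: Lefty1 from 489 ± 60.6 to 349 ± 53.0 CPM and Lefty2 from 239 ± 37.6 to 150 ± 19.5 CPM, by 0.48 and 0.67 on the log2 scale (same test, adjusted p = 0.00623 and 5.7e-04). No library of KO reached a WT library for either Lefty gene.

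Of the intracellular and receptor genes of the pathway, 3 were lower in KO. Foxh1, the partner of the SMADs, fell by 0.34 on the log2 scale, Smad4 by 0.26 and Acvr1b, a type I receptor, by 0.44. Smad2, Smad3, Acvr2a, Acvr2b and the ligand Gdf3 were not called, with log2 fold changes from -0.29 to 0.02. Smad4 was called in 6 of 12 alternative fits, and Acvr1b was not called without KO replicate 2 (log2 fold change -0.34, edgeR's adjusted p = 0.151).

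On the Wnt side, Wnt8a, a ligand of the posterior epiblast and streak, was at 7.24, 2.19 and 2.64 CPM in WT and 15.9, 13.6 and 13.8 CPM in KO. The lowest KO library exceeded the highest WT library (log2 fold change 1.83, standard error 0.29, edgeR's quasi-likelihood test, adjusted p = 1.8e-04). Lef1, a Wnt effector, was at 38.4 ± 5.02 and 38.1 ± 1.08 CPM and was not called. Tcf7l1, a repressor of Wnt targets on chromosome 6, fell by 0.52 on the log2 scale, but was called in only 3 of 12 alternative fits.

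Markers of other lineages moved beside these. Of 5 trophoblast genes, 3 were tested and Krt7, a keratin, fell from 6.79 ± 1.31 to 3.36 ± 0.565 CPM. Of 6 neural genes only Sox1, which marks neural progenitors and whose locus carries the GFP of the line, was tested, and it fell from 3.66 ± 0.405 to 1.06 ± 1.02 CPM. Sox1 was at 0.405, 2.24 and 0.527 CPM in KO replicates 1 to 3. Its log2 fold change was -1.78 with a standard error of 0.44 (edgeR's quasi-likelihood test, adjusted p = 0.00733). Of 8 epiblast genes, Otx2, Fgf5 and Sox2 were called higher, with Otx2 going from 83.4 ± 22.2 to 157 ± 13.2 CPM and a log2 fold change of 0.65 (standard error 0.11) for Fgf5. With a replicate block 6 of the 8 epiblast genes were called, 4 higher and 2 lower.

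**Figure D5:**
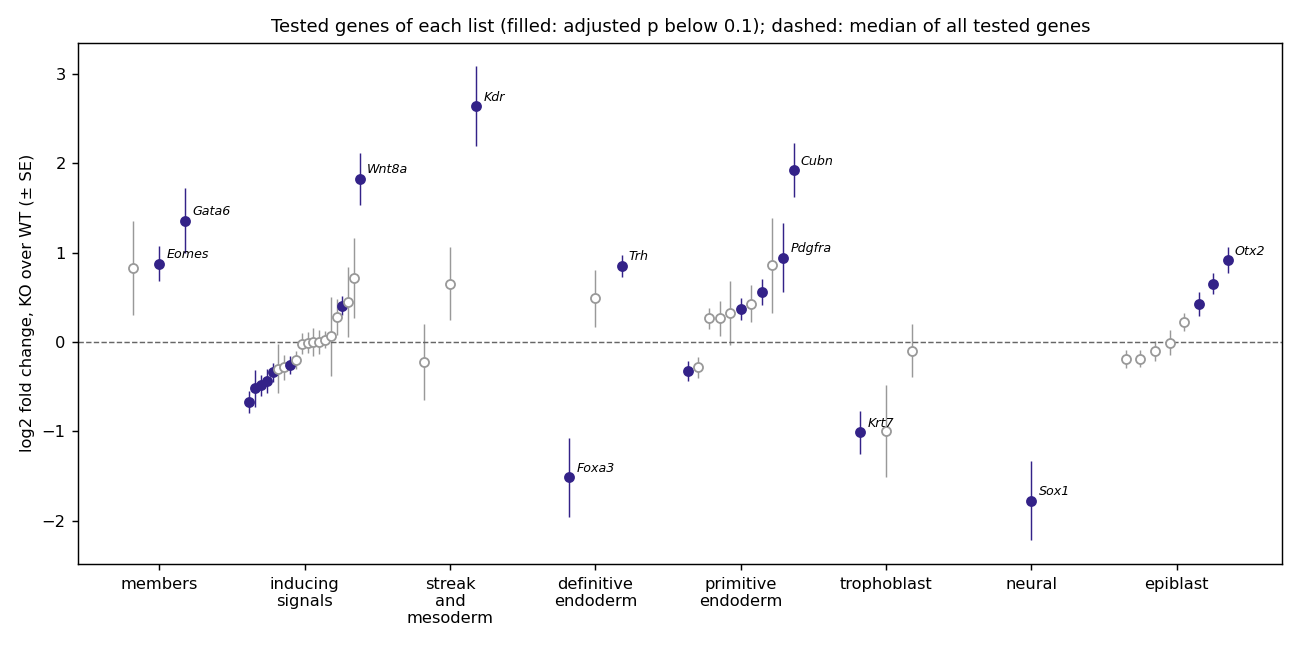
Log2 fold change of KO over WT (vertical axis, with the standard error as a bar) for the tested genes of the regulators and of 7 other lists, filled where the adjusted p was below 0.1 and with a dashed line at the median of all genes tested. Gata6 and Eomes lie above that line, and the inducing signals hold 6 called genes below it and 2 above.

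The genes whose log2 CPM followed a regulator most closely over the 6 libraries were named as a description. For Eomes they were Coch, Gask1b and Dock1, with a Pearson r of 0.995, 0.995 and 0.993. For Gata6 they were Tuba8, Aldh2 and Oxsr1 (0.988, 0.987 and 0.983), and for Sox17 Sbno2, Mib2 and Rtn1 (0.979, 0.975 and 0.971). A value over 0.95 was reached by 190 genes for Eomes, 23 for Gata6 and 9 for Sox17. Eomes and Gata6 had an r of 0.943 with each other, Sox17 and Gata6 0.841 and Eomes and Sox17 0.634. These libraries share genotype, so that a common shift between groups enters every r.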

How the data were processed

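Total RNA depleted of ribosomal RNA was sequenced from 3 WT and 3 KO cultures of 46C EpiLCs with a stranded kit. Reads were trimmed with Fastp and aligned by STAR (two-pass, GRCm39), and the authors deposited the raw counts per gene, neither normalized nor filtered. The annotation release, the use of strand and the treatment of reads with several matches are not given in the sources used here.

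Symbols and positions were taken from GENCODE M39 (54749 of 55416 identifiers found). Counts were tested in R 4.3.3 with edgeR 4.0.16 (TMM, factors 0.974 to 1.02, filterByExpr with a minimum count of 10, quasi-likelihood test, genotype as the term), and p-values were adjusted by Benjamini-Hochberg over 15746 genes. A gene was called at an adjusted p below 0.1, the study's threshold for the adjusted p. The study's list of differentially expressed genes also required a log2 fold change of at least 1, which was not required here. Standard errors were worked back from the log2 fold change and the F statistic of the same fit. The scripts were tested on simulated data, with changes planted only in genes of more counts than most regulators had. Genes under the filter were compared by the exact permutation test (scipy 1.17.1) and exact conditional intervals of summed counts. Alternatives were RLE factors, library totals, no filter, DESeq2 1.42.0, a replicate block and leaving out each library.

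The labels number the replicates alike in both groups, and the text of the series calls them paired. The methods of the paper call the RNA-seq samples biological replicates and do not say that they were paired. Deviations from group means correlated across 13078 genes at 0.257, 0.298 and 0.122 for libraries of the same number and from -0.233 to -0.0379 for different numbers. Since the deviations in a group sum to 0, the negative values follow from the positive ones and are no separate evidence. The pairing by number rests here on the positive values alone. Named genes were every regulator, list genes called, inducing signals of at least 10 CPM in WT, list genes at 0 in every library, neighbours and the 3 most similar genes. Pou3f1 is named as the targeted gene. Afp, Apoa1, Cer1 and the uncalled genes that share the order of KO libraries were chosen after their values were seen. The regulators and lists were chosen with earlier results of these data known.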

Additional observations from a re-analysis of the deposited data

How the results depend on the processing

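Eomes kept its direction and its call in every alternative run, with log2 fold changes of 0.77 to 0.99 when libraries were left out. Gata6 kept its direction, and its call except without KO replicate 3. The number of regulators called was 2 in every setting but that, with a range of 1 to 2 over the fits that left out a library. Foxa2, 1 of 7 regulators under the filter whose groups did not overlap, overlapped with library totals alone, which left 0. The replicate block, for paired libraries, kept 2 regulators called and raised the genes called by edgeR from 3833 to 4764 and those of the 7 other lists from 21 to 28. DESeq2 called 3292 genes without the block and 2932 with it, where Gata6 had an adjusted p of 0.0791, and leaving out libraries 3058 to 3790 in all and 14 to 21 of the lists. Without the filter the streak and mesoderm list had 2 genes called and the primitive endoderm list 8, without KO replicate 2 the definitive endoderm list had 1, and without WT replicate 2 the trophoblast list had 2. The cause of these moves was not tested. Calls lost without 1 library, with edgeR's adjusted p in the fits that lost them, were Col4a1 without KO replicate 3 (0.116), Lamb1 without WT replicate 2 (0.180), KO replicate 1 (0.208) or KO replicate 3 (0.122), Sparc without WT replicate 1 (0.188), KO replicate 2 (0.251) or KO replicate 3 (0.103), and Sox2 without WT replicate 1 (0.111) or KO replicate 3 (0.206). Smad4, Tcf7l1 and Pdgfra reached 0.234, 0.319 and 0.332 at most. With at most 27 counts in each group, the 7 regulators below the filter allow only the intervals printed beside them.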
